A study of Homo sapiens with 9 samples.

Results

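ERG was read through every ATAC-seq peak centred on chr21:39740000-40045000 (GRCh37), a stretch of 305 kb that holds the whole gene (ENSG00000157554.20, chr21:39751949-40033704, minus strand) and some sequence on each side. The position of a peak was the only criterion. The 9 deposited peak lists held 104 such peaks of 2164004 on chromosomes 1 to 22 and X, and 13 of them were among the 450000 peaks obtained by keeping the 50000 peaks of smallest p-value in each list. Merging peaks that overlap between libraries gave 55 sites from the full lists, of 738271 in all, and 6 from the 50000 highest peaks, of 105878 in all.

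The cells were K562, a human erythroleukaemia line from a chronic myeloid leukaemia, and ATAC-seq marks open DNA by the insertions of the transposase Tn5. Wild-type cells are the original line with no mutation in STAG2, which encodes a subunit of the cohesin ring. Heterozygous cells are STAG2 R614* +/- and homozygous cells are STAG2 R614* -/-, where the asterisk marks a stop codon, and both were edited with CRISPR-Cas9. Each genotype was 1 line with 3 replicate libraries, so a difference between genotypes cannot be told apart from a difference between lines. The homozygous cells were adherent and were detached with trypsin for subculture, a difference that is also inseparable from their genotype. Nothing in the labels says that the replicates came from separate cultures, so the p-values measure the spread between these libraries, which may be technical.

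ERG encodes a transcription factor of the ETS family, whose members bind DNA with a GGAA core. ERG is needed by blood stem cells and by endothelium, and it works there on shared enhancers with TAL1, LYL1, LMO2, GATA2, RUNX1 and FLI1. It is read from the telomeric side towards the centromere from alternative promoters: a distal group, a middle group and the more centromeric promoter of the reference transcript. Enhancers of such developmental genes often lie in their long introns, which is why the peaks were resolved by intron here.

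The annotation gives 15 ERG transcripts with 11 different start positions over 281.756 kb. The start of the reference coding transcript, ERG-201, is position 39870401, and the most distal start, of ERG-209, is position 40033704. The canonical start region is printed because the peak lists bear on it directly: it had no peak in any library. It runs from 250 bases before to 50 bases after the start, 5′ to 3′ on the minus strand of GRCh37, at chr21:39870352-39870651. Here and in the next set, capitals mark matches to short motifs searched on both strands. The motif taken for GATA factors was AGATAA. That for RUNX factors was TGTGGT, and that for ETS factors was AGGAAG. The motif for AP-1 was TGANTCA, and the E-box bound by TAL1 and its relatives was written CAGNTG. Matches of different motifs could overlap.
canonical start: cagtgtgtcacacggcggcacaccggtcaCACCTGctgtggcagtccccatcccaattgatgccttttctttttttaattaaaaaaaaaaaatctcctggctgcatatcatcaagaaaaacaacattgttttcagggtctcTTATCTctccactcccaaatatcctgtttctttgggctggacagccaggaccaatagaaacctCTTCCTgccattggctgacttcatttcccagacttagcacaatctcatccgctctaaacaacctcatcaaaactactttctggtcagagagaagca
The canonical sequence holds 1 GATA, 1 ETS and 1 E-box match, with a GC content of 44.3% and 4 CpG dinucleotides.

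The second set of sequences is 300 bases of each of 3 sites that the comparisons of presence turn on, placed at the median midpoint of the strongest peak that each library has there. All are given 5′ to 3′ on the plus strand of GRCh37, and 2 of them were chosen after their values were seen (the intron 1 site came from the rule stated under processing). The intron 1 site (chr21:39848346-39848645) lies in the first intron of ERG-201. The distal intron site (chr21:40021050-40021349) lies in the first intron of ERG-208, whose start is in the distal group. The 3′ site (chr21:39748228-39748527) lies beyond the end of the gene.
intron 1 site: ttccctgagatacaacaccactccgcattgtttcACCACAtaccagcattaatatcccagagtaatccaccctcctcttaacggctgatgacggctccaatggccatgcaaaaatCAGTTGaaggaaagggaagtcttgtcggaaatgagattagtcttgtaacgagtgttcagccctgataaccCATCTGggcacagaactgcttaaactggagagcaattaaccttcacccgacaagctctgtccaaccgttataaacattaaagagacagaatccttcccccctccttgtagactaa
distal intron site: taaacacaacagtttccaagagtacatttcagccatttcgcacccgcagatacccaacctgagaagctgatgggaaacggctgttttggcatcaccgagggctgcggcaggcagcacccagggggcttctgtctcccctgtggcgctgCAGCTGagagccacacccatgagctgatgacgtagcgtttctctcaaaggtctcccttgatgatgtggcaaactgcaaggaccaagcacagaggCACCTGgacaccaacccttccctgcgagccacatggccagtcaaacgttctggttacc
3′ site: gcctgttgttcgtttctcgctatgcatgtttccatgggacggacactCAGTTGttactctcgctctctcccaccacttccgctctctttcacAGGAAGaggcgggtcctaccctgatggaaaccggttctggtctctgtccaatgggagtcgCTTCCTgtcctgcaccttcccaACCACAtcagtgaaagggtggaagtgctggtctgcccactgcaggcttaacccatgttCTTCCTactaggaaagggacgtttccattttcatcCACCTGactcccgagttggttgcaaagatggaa
The intron 1 site holds 1 RUNX and 2 E-box matches. The distal intron site holds 2 E-box matches, and the 3′ site holds 3 ETS matches, 1 RUNX match and 2 E-box matches. These are matches of letters, not measured binding sites.

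Before the sites are compared, some libraries have to be named that were not alike in their lists. The lists used held between 181407 and 319697 peaks, and the longest was that of homozygous replicate 3. Wild-type replicate 3 and heterozygous replicate 1 had 46.0% of the shorter list's peaks at exactly the same start and end, and so had wild-type replicates 1 and 2 at 23.2%. The heterozygous replicates 2 and 3 shared 1.17% in this way, and the other 33 pairs shared 0.223% to 0.351%. At ERG all 6 peaks of heterozygous replicate 1 were among the 8 of wild-type replicate 3 with identical ends. Wild-type replicates 1 and 2 shared 2 of their 7 and 8 ERG peaks. These 4 lists may therefore not be independent samples, and the numbers of ERG peaks are also given without 1 or more of them. Of the erythroid start regions, those of TAL1 and HBG1 had a peak among the 50000 highest in every library, and those of the erythroid regulators GATA1 and KLF1 had none in any library. Of 5 endothelial markers (CDH5, TEK, KDR, TIE1 and EMCN), KDR had such a peak in homozygous replicate 1 and the other 4 had none anywhere. Of 4 lymphoid markers none had a peak, and of 5 epithelial or fibroblast markers EPCAM, KRT8, COL1A1 and COL1A2 had one in all 9 libraries and PDGFRB in 4.

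Peaks at ERG were few in wild-type and heterozygous cells and more frequent in 2 of the 3 homozygous libraries. The full lists held 7, 8 and 8 ERG peaks in wild-type replicates 1 to 3. Heterozygous replicates 1 to 3 held 6, 4 and 3. Homozygous replicates 1 to 3 held 7, 22 and 39, so the first homozygous library lay within the wild-type range and the other 2 lay above every other library. ERG was thus not among the 9.18% of windows of this length in which every homozygous library was above the other 6. The means were 7.67 ± 0.577 for wild-type, 4.33 ± 1.53 for heterozygous and 22.7 ± 16.0 for homozygous cells (SD, n = 3 each). An exact permutation test over the 280 ways of assigning the libraries to 3 genotypes gave p = 0.0786, and homozygous against wild-type libraries alone gave an exact permutation p of 0.4, where 0.1 is the smallest possible. Unless a pair is named, every p below is over the 3 genotypes. The homozygous minus wild-type difference of 15 peaks rested on which homozygous libraries were used: it was 22.8 without replicate 1 (exact permutation p over the 3 genotypes = 0.00357) and 6.83 without replicate 3 (exact permutation p over the 3 genotypes = 0.0786). Without wild-type replicate 3 and heterozygous replicate 1, which share intervals, it was 15.2 (exact permutation p over the 3 genotypes = 0.143). Every homozygous library was above every heterozygous one, which was so in 18.1% of all 9355 windows of this length with peaks. Every heterozygous library was below every wild-type one, which was so in 14.5% of windows.

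**Figure D1:**
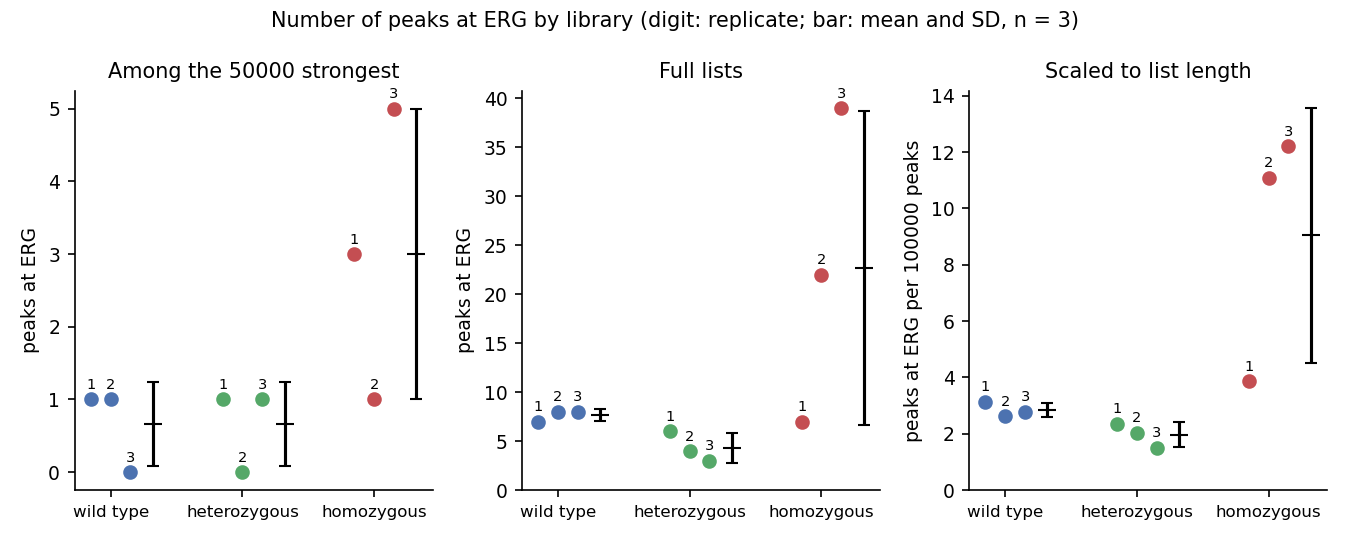
ERG peaks in each of the 9 libraries, with the number of peaks on the y axis for the 50000 highest and the full lists; points are libraries with their replicate number, bars are the mean and SD of 3 libraries, and the last panel scales the full lists to 100000 peaks. Homozygous replicates 2 and 3, with 22 and 39 full-list peaks, lie apart from the other 7 libraries, which hold 3 to 8.

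The lists differ in length, so the same peaks were also expressed per 100000 peaks of each list. This scale was chosen after seeing the data. Wild-type libraries held 3.14, 2.63 and 2.78 ERG peaks per 100000, and heterozygous libraries 2.36, 2.04 and 1.5. Homozygous libraries held 3.86, 11.1 and 12.2 per 100000. On this scale no homozygous library overlapped any other, with a mean of 9.05 ± 4.53 against 2.85 ± 0.260 in wild-type and 1.97 ± 0.436 in heterozygous cells (SD, n = 3). The exact permutation p was 0.00357, the smallest that 280 assignments allow, and the value adjusted over all windows was 0.0705 by the Benjamini-Hochberg method, which does not pass 0.05. For homozygous against wild-type libraries alone the exact permutation p was 0.1. The difference of 6.20 became 6.16 without wild-type replicate 3 and heterozygous replicate 1, and 6.34 without 1 list of each sharing pair (wild-type replicate 1 and heterozygous replicate 1). The exact permutation p over the 3 genotypes was then 0.105 in each case, so the unadjusted call did not hold at these group sizes. With groups of unequal size, homozygous replicates 2 and 3 can be assigned to a smaller group by themselves. The rise in p therefore does not show whether the call depended on the lists that share intervals. The same complete separation of homozygous libraries was found in 22.3% of windows, and 41.1% of windows had an unadjusted p under 0.05.

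Among the 50000 highest peaks of each list, ERG was almost empty. Wild-type libraries held 1, 1 and 0 such peaks, heterozygous libraries 1, 0 and 1, and homozygous libraries 3, 1 and 5. The homozygous minus wild-type difference of 2.33 peaks was of the size of the spread within the homozygous group (SD 2.0, exact permutation p for this pair = 0.3). Over the 3 genotypes the exact permutation p was 0.179 (adjusted over windows 0.490). The difference was 3.33 without homozygous replicate 2 (exact permutation p over the 3 genotypes = 0.0357) and 1.33 without homozygous replicate 3 (exact permutation p over the 3 genotypes = 0.321). With 100000 peaks kept per list the counts were 3, 2 and 2 for wild-type, 3, 3 and 3 for heterozygous and 6, 4 and 11 for homozygous cells. There the homozygous libraries lay above all others (exact permutation p = 0.0143, adjusted over windows 0.215), as in 9.14% of windows, and 18.9% of windows had an unadjusted p under 0.05. With 20000 peaks kept, homozygous replicate 1 alone held an ERG peak.

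The strength of the ERG peaks was compared by the percentile of each peak's −log10 p within its own full list, where 100 is the strongest peak of the list. The best ERG peak of each library stood at 89.1, 92.4 and 82.6 for wild-type, 82.4, 67.5 and 76.7 for heterozygous and 91.4, 84.2 and 93.0 for homozygous cells. The groups overlapped between wild-type and homozygous cells. Peaks above the median of their list numbered 3, 5 and 3 for wild-type, 3, 3 and 3 for heterozygous and 3, 4 and 17 for homozygous libraries. Of the ERG peaks, 4 of 22 were above the median in homozygous replicate 2 and 17 of 39 in replicate 3. With a −log10 q of at least 2 the counts were 3, 2 and 2, then 3, 3 and 3, then 3, 4 and 11.

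**Figure D2:**
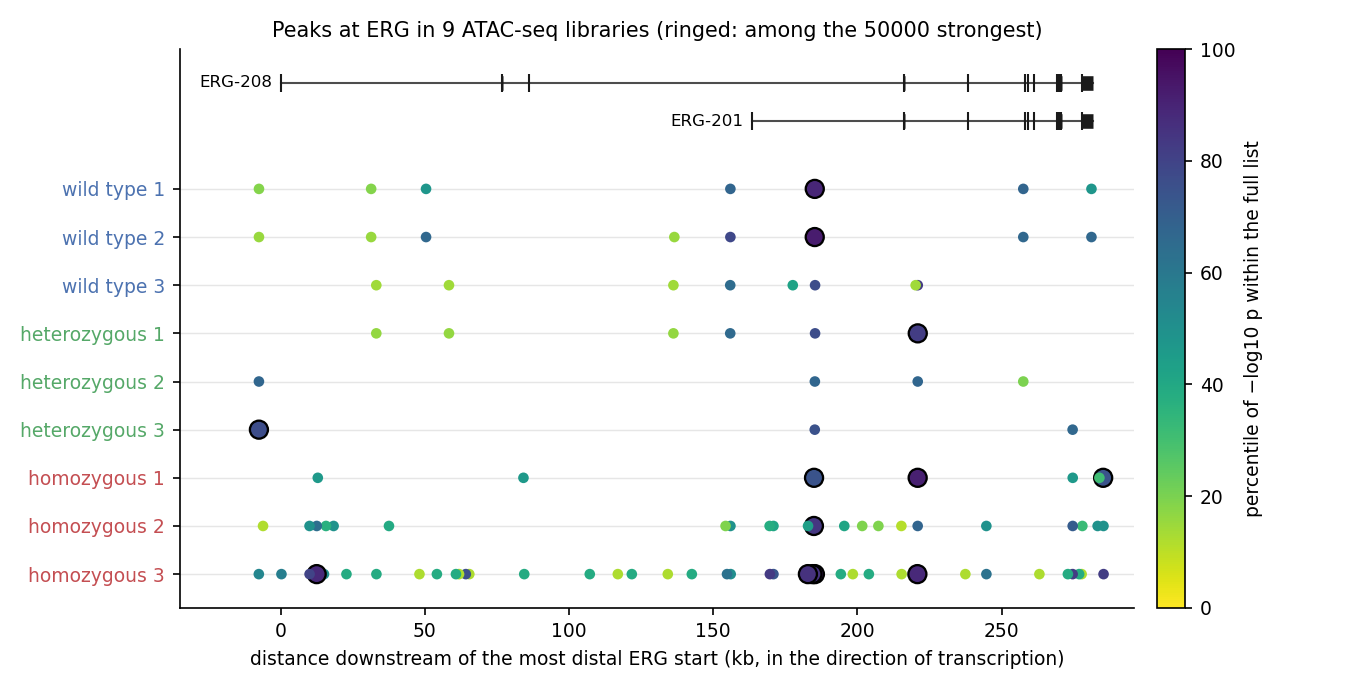
Map of the ERG peaks by distance in kb from the distal start, with the exons of ERG-208 and ERG-201 above; each line is a library, each point a peak of its full list, colour the percentile of its −log10 p, and rings mark peaks among the 50000 highest. Homozygous replicates 2 and 3 carry the most peaks, and no library has a peak at the canonical start.

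Resolved by the position of their centre, 28 of the 55 full-list sites lay upstream of ERG-201 in introns of ERG-208, a transcript that spans the whole gene. A further 20 were centred in introns of ERG-201, a stretch that ERG-208 also covers. Of the others, 2 were centred in exons, 3 beyond the 3′ end and 2 upstream of the distal start. The sites were mostly seen in single libraries: 33 of 55 had a peak in only 1, of which 22 were in homozygous replicate 3 and 9 in homozygous replicate 2. In all, 42 sites had peaks in homozygous libraries alone, 12 had one in any wild-type library and 9 in any heterozygous library. As background, 543600 of all 738271 full-list sites had a peak in a wild-type or heterozygous library, against 13 of the 55 at ERG. The 42 include 7 sites shared by homozygous replicates 2 and 3 alone and 1 shared by replicates 1 and 3 alone. Most ERG sites therefore rest on a single peak of 1 list. The share of all full-list sites seen in only 1 library is not given here, so whether this sets ERG apart was not tested.

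No library had a peak within 1 kb of the canonical start at 39870401 or of the neighbouring starts at 39870400 and 39870366. The nearest peak to the canonical start was 6000 to 21686 bp away, depending on the library. The middle starts at 39956869 and 39956824 also had no peak within 1 kb in any library, with the nearest at 7099 to 84141 bp and 7054 to 84186 bp. The starts at 39870380 and 39821028, of transcripts with no defined coding sequence, had none either. The nearest peaks to them were at 5979 to 21665 bp and 2319 to 27222 bp. The start at 39817544 is also of a transcript with no defined coding sequence. Near it, the site chr21:39818129-39818709 had weak peaks in homozygous replicates 2 and 3, at percentiles 11.2 and 12.3, and no peak in the other 7 libraries. The distal starts at 40033704, 40033618 and 40032591 were near a peak in homozygous replicate 3 alone. That peak spanned chr21:40033021-40033865 at percentile 57.5, with a fold enrichment of 3.59, and was not among the 50000 highest. As background, 51.0% to 53.6% of 78394 starts of coding transcripts had a peak of the 50000 highest within 1 kb, and 65.2% to 72.6% had one of the full list.

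The most constant ERG site, chr21:39848003-39849552, had a full-list peak in all 9 libraries. It is the intron 1 site printed above and lies 21.6 kb downstream of the nearest annotated start. Its percentile was 89.1, 92.4 and 76.8 for wild-type, 76.8, 67.5 and 74.7 for heterozygous and 74.6, 84.2 and 93.0 for homozygous libraries. Its fold enrichment, as the authors' files give it, was 6.40, 6.85 and 4.27 for wild-type, 4.47, 4.08 and 4.63 for heterozygous and 4.23, 4.62 and 6.13 for homozygous libraries. Wild-type and homozygous libraries overlapped throughout on both scales.

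Among the 50000 highest peaks, the intron 1 site was present in wild-type replicates 1 and 2 and in all 3 homozygous libraries, and in no heterozygous library. It was the 1 ERG site of 6 that separated homozygous from heterozygous cells by presence in 3 of 3 against 0 of 3, a pattern found at 3.16% of all sites. The reverse was found at none of the 6 and at 3.41% of all sites. Its rank within the 50000 highest, with 0 where it was absent, was at percentile 51.3, 54.0 and 0 for wild-type, 0, 0 and 0 for heterozygous and 7.84, 37.2 and 55.1 for homozygous libraries. The exact permutation p was 0.229 and the adjusted value was 0.681. In all 3 heterozygous libraries the site was called in the full list, at percentiles that overlapped those of wild-type replicate 3 and homozygous replicate 1, so its absence there depends on the limit of 50000 peaks. That limit lies at a different −log10 p in each list: heterozygous replicate 3 had 5.94 at the site under a limit of 6.01, and homozygous replicate 1 had 5.84 over a limit of 5.49.

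More bases of the intron 1 site were called in homozygous libraries, summed over the peaks of each library. Its peaks covered 642, 636 and 500 bp for wild-type, 500, 500 and 500 bp for heterozygous and 1489, 1220 and 1102 bp for homozygous libraries. The means were 593 ± 80.3, 500 ± 0 and 1270 ± 198 bp (SD, n = 3), and no homozygous library overlapped those of the other genotypes. In homozygous replicate 3 the sum is of 2 separate peaks of 602 and 500 bp, each narrower than the single peaks of wild-type replicates 1 and 2. The exact permutation p was 0.0143 and the value adjusted over the 52769 sites present in all 9 libraries was 0.628. Homozygous libraries covered more than the other 6 at 2.11% of those sites and less at 2.92%. Peaks of exactly 500 bp, the commonest width, recur across the lists.

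**Figure D3:**
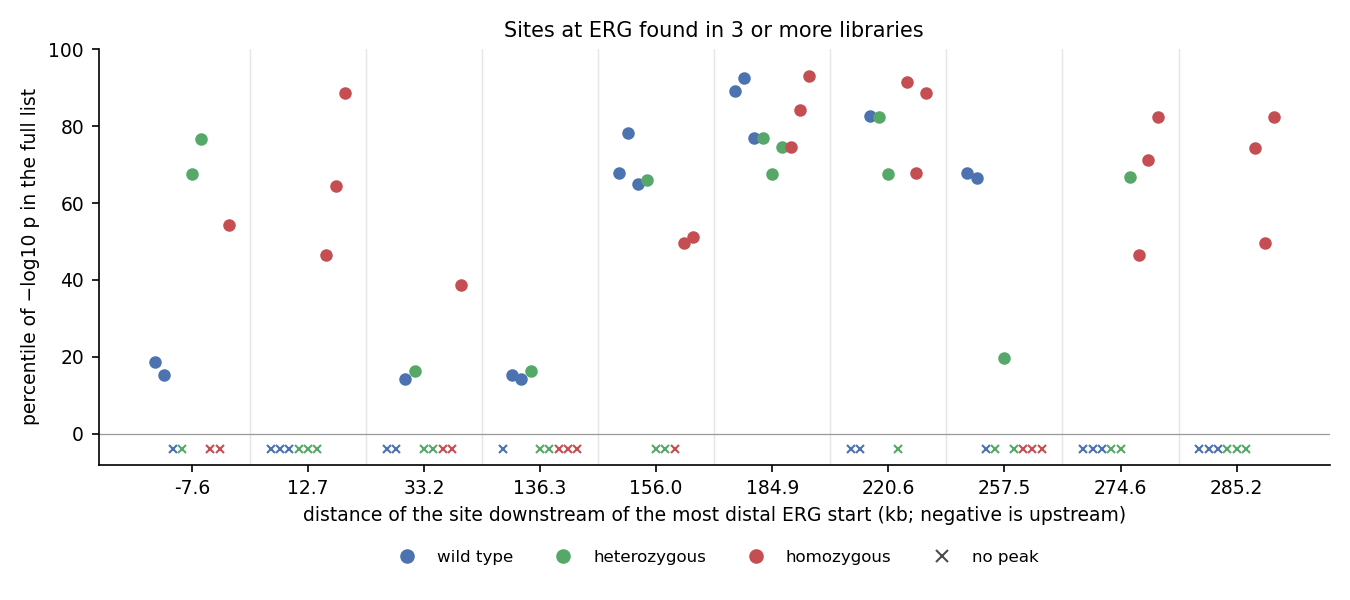
Percentile of −log10 p within the full list (y axis) for the 10 ERG sites found in 3 or more libraries, by distance in kb from the distal start (x axis); each point is a library, colour gives its genotype and a cross marks a library with no peak. The intron 1 site has points for all 9 libraries between 67.5 and 93.0, and the distal intron and 3′ sites have points for the 3 homozygous libraries alone.

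A site in the second intron of ERG-201, chr21:39812531-39813765, had a full-list peak in 6 libraries, as had the site upstream of the canonical start described further on. It had a full-list peak at percentile 82.6 in wild-type replicate 3, at 82.4 and 67.5 in heterozygous replicates 1 and 2 and at 91.4, 67.8 and 88.7 in the homozygous libraries. Wild-type replicates 1 and 2 and heterozygous replicate 3 had no peak there. Among the 50000 highest it was present in heterozygous replicate 1 and homozygous replicates 1 and 3 (exact permutation p = 0.25, adjusted 0.681). Wild-type replicate 3 and heterozygous replicate 1, which share intervals, had nearly the same percentile at this site. In wild-type replicate 3 this peak was tied in p-value with the last peaks kept.

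The other 4 sites of the 50000 highest were each present in 1 library. They were the upstream site in heterozygous replicate 3, sites in the first introns of ERG-208 and ERG-201 in homozygous replicate 3, and the 3′ site in homozygous replicate 1. None of the 6 sites separated homozygous from wild-type cells in either direction, against 2.7% of all sites present in homozygous and not wild-type cells and 3.46% the other way. No site was present in homozygous cells alone, against 1.8% of all sites. None separated heterozygous from wild-type cells, against 0.393% and 0.504% of all sites. In rank none of the 6 had an exact permutation p under 0.05 before adjustment, against 10.6% of all sites, and after adjustment over 105878 sites no site anywhere passed.

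In the full lists 2 ERG sites were found in all 3 homozygous libraries and in no other. The distal intron site, chr21:40020593-40021485, lies 12.7 kb downstream of the distal start of ERG-209. It stood at percentile 46.4, 64.4 and 88.6 in homozygous replicates 1 to 3, with fold enrichments of 3.44, 3.82 and 5.78. The 3′ site, chr21:39748049-39748923, lies 285.2 kb downstream of the distal start and past the end of the gene. It stood at percentile 74.4, 49.5 and 82.3, with fold enrichments of 4.47, 3.32 and 4.8. The exact permutation p was 0.0357 for each, and 0.894 after adjustment over all full-list sites. Presence in homozygous cells alone was found at 2 of 55 ERG sites and at 0.638% of all sites.

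Another site, chr21:39758792-39759327 in intron 9 of ERG-201, was in all 3 homozygous libraries and no wild-type one, at percentile 46.4, 71.1 and 82.3, and also in heterozygous replicate 3 at 66.7. With it, 3 of 55 ERG sites were present in homozygous and absent from wild-type cells, against 0.958% of all sites. None was present in all wild-type libraries and absent from homozygous ones, against 2.35%. Between homozygous and heterozygous cells the counts were 2 of 51 sites against 1.46%, and none the other way against 1.29%. No ERG site separated heterozygous and wild-type cells, against 0.157% and 0.851% of sites in the 2 directions. In rank, 2 of 55 sites had an unadjusted exact permutation p under 0.05, against 4.5% of all sites, and none passed after adjustment.

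Some sites went the other way without separating the genotypes. A site at −7.26 kb from the canonical start (negative is upstream), chr21:39877260-39878065, had peaks at percentile 67.8, 78.3 and 65.0 in the wild-type libraries, and at 65.9 in heterozygous replicate 1. In homozygous replicates 2 and 3 it stood lower, at 49.5 and 51.1, and the remaining 3 libraries had no peak (exact permutation p = 0.121). In intron 3 of ERG-201, chr21:39775938-39776440 had peaks in wild-type replicates 1 and 2 at 67.8 and 66.6 and in heterozygous replicate 2 at 19.6, and none in homozygous cells. In all, 7 of 55 sites had no homozygous peak, a count for which the share over all sites is not given here. The upstream site, chr21:40040987-40041538, was strongest in heterozygous replicates 2 and 3, at 67.5 and 76.7, with 18.6 and 15.4 in wild-type replicates 1 and 2 and 54.2 in homozygous replicate 3.

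The larger number of ERG peaks in homozygous cells was then set against other windows of 305 kb. Per 100000 peaks, the ratio of the homozygous mean to the mean of the other 6 libraries was 3.76 at ERG against a median of 1.02 over the genome, and 0.823% of windows had a ratio at least as large. The difference was 6.64 peaks per 100000 against a median of 0.172, and 4.95% of windows had at least that difference. ERG was a sparse window outside the homozygous cells, where 7% of windows had a lower level. In homozygous cells 46.1% of windows were lower. Among 1028 windows within 1.5 times of ERG's level in the other 6 libraries, the median homozygous level was 3.57 and 4.09% reached the 9.05 of ERG. In 31.4% of these like windows every homozygous library was above the other 6.

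**Figure D4:**
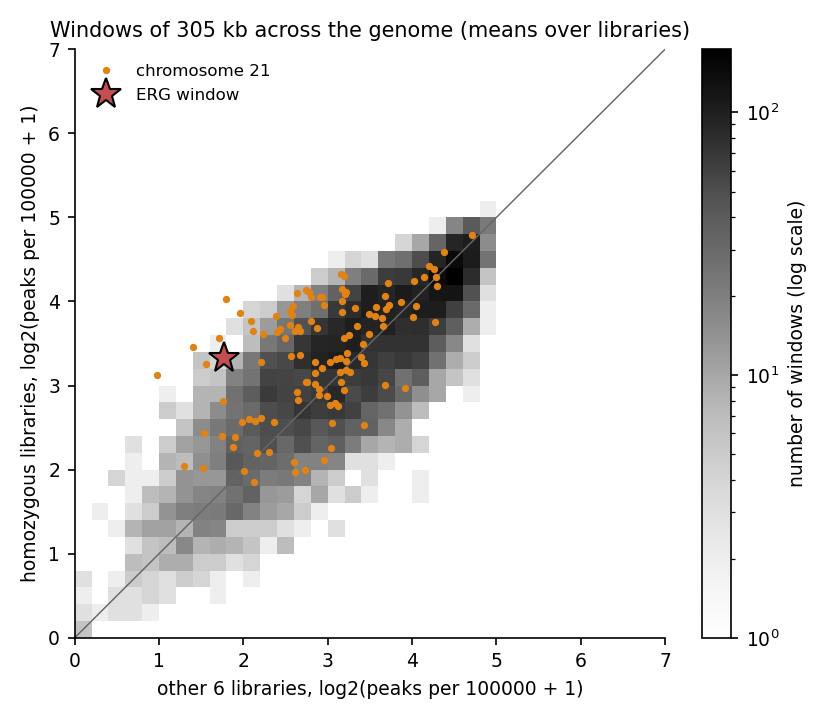
Peaks per 100000 in windows of 305 kb over chromosomes 1 to 22 and X, with the mean of the 6 wild-type and heterozygous libraries on the x axis and the mean of the 3 homozygous libraries on the y axis, both as log2 of the value plus 1; shading gives the number of windows and orange points are those of chromosome 21. ERG, the star, lies above the diagonal of equal values, with 2.41 peaks per 100000 in the other libraries against 9.05 in the homozygous ones.

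Peak numbers were also higher in homozygous cells in the windows next to ERG. Chromosome 21 held 0.903%, 1.03% and 0.910% of the peaks for wild-type, 0.836%, 0.873% and 0.776% for heterozygous and 1.17%, 1.29% and 1.32% for homozygous libraries, with no overlap between homozygous and other libraries (unadjusted exact permutation p = 0.00357). The shares of the other chromosomes are not given here, so whether chromosome 21 stands apart from them was not tested. Of the 40 windows within 6.1 Mb of ERG, all had a homozygous mean above that of the other 6 libraries, with a median ratio of 2.32 and a range of 1.1 to 7.99. In 33 of the 40 every homozygous library was above the other 6. Their median difference was 7.17 peaks per 100000, and in 25 of the 40 it was at least the 6.64 of ERG. The difference was 6.74 in the next window on the centromere side and 7.95 in the next on the telomere side. The windows from 40960001 to 42485000, among the 40 on the telomere side, had ratios of only 1.1 to 1.67. Beyond the 40, the windows from 46145001 to the telomere end had ratios of 2.25 to 4.78. In each of these every homozygous library was above the other 6. The higher peak numbers therefore reached past the 40 windows and were not centred on ERG. The 66 windows lying more than 25 windows away on the centromere side had a median ratio of 1.06 and a median difference of 0.534. This division of the chromosome was chosen after its values were seen and carries no test.

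In its ratio ERG stood among the higher windows of the chromosome. It was 1 of 8 windows among 119 on chromosome 21 with a ratio of at least 3.76, and 6 of the 40 neighbours reached it. As a share of the chromosome 21 peaks, ERG held 0.348%, 0.256% and 0.306% for wild-type, 0.283%, 0.233% and 0.193% for heterozygous and 0.330%, 0.862% and 0.927% for homozygous libraries. On that scale homozygous replicate 1 lay inside the wild-type range, and replicates 2 and 3 lay above all others (exact permutation p = 0.0429). That scale was also chosen after seeing the data. In homozygous replicate 1 only 2 of the 40 neighbours were at or below ERG's 3.86 peaks per 100000, and their median was 10.5. The part in the ERG values of the higher peak numbers over the surrounding windows was not tested, and DNA copy number was not analysed here.

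**Figure D5:**
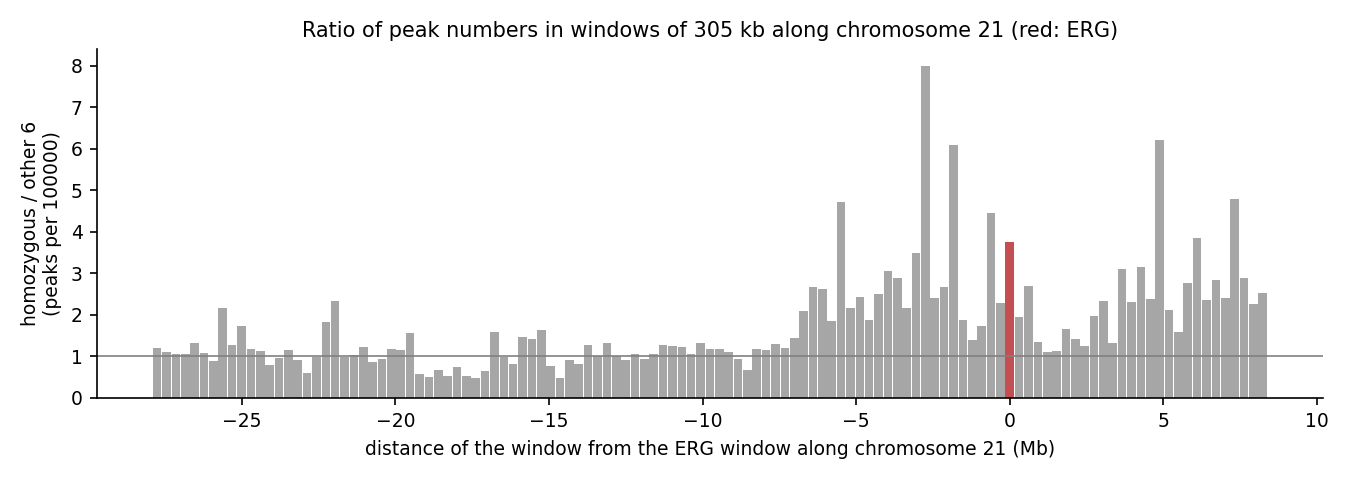
Ratio of the mean of the homozygous libraries to the mean of the other 6, in peaks per 100000, for each 305 kb window of chromosome 21 (bars) by distance in Mb from the ERG window, with a line at 1. The 40 windows nearest ERG lie above 1 with a median of 2.32, and ERG (red) is at 3.76. The windows beyond the 40 on the telomere side lie at 2.25 to 4.78.

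The factors that bind together with ERG in blood stem cells were counted in their gene bodies and 10 kb on each side. TAL1, LYL1, LMO2, GATA2, RUNX1 and FLI1 together held 61 sites of the 50000 highest peaks, of which 1 (at TAL1) was in all homozygous and no wild-type libraries and 1 (at RUNX1) the reverse, against 2.7% and 3.46% of all sites. Between homozygous and heterozygous cells 1 site at TAL1 was called, against 3.16% of all sites, and none of the 61 passed the rank test after adjustment. In the full lists these genes held 348 sites, with 8 present in homozygous and not wild-type cells, all at RUNX1, and 1 the reverse, at FLI1, a close relative of ERG, against 0.958% and 2.35% of all sites. A further comparison, of homozygous and heterozygous cells, called 14 sites present in homozygous cells, all at RUNX1, and 3 the reverse, at TAL1 and FLI1, against 1.46% and 1.29% of all sites.

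RUNX1, a partner of ERG that also lies on chromosome 21, had 29, 50 and 45 full-list peaks for wild-type, 35, 31 and 27 for heterozygous and 68, 91 and 166 for homozygous libraries, so every homozygous library was above every other one. Its annotated length is several times that of ERG, so the shares over windows of 305 kb are no background for this count. At FLI1, on chromosome 11, the counts were 22, 23 and 27, then 25, 35 and 27, then 27, 21 and 23, and they overlapped fully. KCNJ15, a potassium channel gene next to ERG, had 6, 7 and 6 peaks for wild-type, 4, 3 and 4 for heterozygous and 8, 11 and 18 for homozygous libraries. ETS2, another ETS factor gene next to ERG, had 5, 7 and 6 peaks for wild-type, 6, 3 and 4 for heterozygous and 4, 7 and 7 for homozygous libraries, which overlapped. None of these counts per gene was tested beyond the site calls.

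Genes whose pattern over the 9 libraries was most like that of ERG were sought among 16067 coding genes. Likeness was the mean absolute difference between the counts of peaks among the 50000 highest, each divided by the gene's own mean. The closest was SYTL5 on chromosome X at 0.269, with counts of 1, 1 and 0 for wild-type, 1, 0 and 1 for heterozygous and 4, 1 and 3 for homozygous libraries. HCCS, KCNN3, NUP93 and SLC22A3 followed at 0.308 each. With 13 ERG peaks in all, these counts are small, and the likeness is a description of these lists.

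The letters of the ERG sites were compared with those of all sites in the 500 bp around the midpoint of each merged site, which is not the stretch printed above. Of the 6 sites of the 50000 highest peaks, 4 held the RUNX motif, 3 the ETS motif, 5 the E-box, 2 the AP-1 motif and 1 the GATA motif. The shares over all 105878 sites were 32.3%, 46.4%, 73.7%, 22.9% and 29.9%. The CTCF motif was in none of the 6 and in 8.17% of all. Of the 55 full-list sites, 22 held the RUNX motif, 22 the ETS motif, 42 the E-box, 15 the AP-1 motif, 13 the GATA motif and 3 the CTCF motif. The shares over all full-list sites were 32.9%, 43.6%, 72%, 18.3%, 29.6% and 2.44%. The median GC content of the 55 sites was 46.8%, against 43.8% over all sites.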

How the data were processed

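ATAC-seq libraries of 50000 cells were sequenced as 100 bp single-end reads, per the labels' protocols. The submitters' processing notes name cutadapt, Bowtie2 2.2.9, Picard, MACS2 2.1.0 and the build hg19 or GRCh37. Peaks were called on each library separately, since the authors deposited 1 list per library. Whether reads were shifted for the Tn5 cut is not given in the sources used here. The deposited lists give for each peak a fold enrichment, a −log10 p-value, a −log10 q-value, a display value and a summit position; no read counts were used, so the depth behind a peak is unknown. A list holds only peaks past the caller's threshold, so a missing peak does not show closed chromatin.

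Peaks on chromosomes 1 to 22 and X were ranked by −log10 p within each library, with average ranks for ties, and the 50000 highest were kept (ties ordered by fold enrichment and then by position). Peaks overlapping by at least 1 bp between libraries were merged into sites. A genotype pair was separated at a site present in 3 of 3 libraries of one and 0 of 3 of the other. Ranks and counts were tested by exact permutation over 280 assignments of the libraries, with the between-genotype sum of squares as the statistic, with Benjamini-Hochberg adjustment over all sites or windows at 0.05. Over these 280 assignments the smallest p is 0.00357, and it is 0.1 for a pair of genotypes. With a replicate block there are fewer assignments and the smallest p is larger than 0.00357. Windows of 305 kb were tiled over the genome from the ERG window. Transcripts came from GENCODE 44 lifted to GRCh37, and sequences from the GRCh37 genome. The code was tested on simulated data. Python 3.11.15, numpy 2.4.6 and pandas 2.3.3 were used.

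The ERG window, the gene lists, the motifs and the tests were chosen with earlier results of these data known. Sites given in every library are those within 1 kb of an ERG start, those separating genotypes and those in all 9 libraries; others were named after their values were seen. The 5 coding genes of most similar counts were named. Alternatives kept 20000 or 100000 peaks or the full lists, ranked by −log10 q, left out each replicate, used other overlaps or a replicate block. The marker PECAM1 was not analysed here, and some marker and sequence results are not reported here.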

Additional observations from a re-analysis of the deposited data

How the results depend on the processing

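Exact permutation p-values here are over the 3 genotypes, not for the pair. Over 128 recomputed values of the main comparisons, 110 stayed on their side of the threshold or within 1.5 times. Not all of the 128 could change. They include an overlap rule that leaves every site as it is, a window nearly the same as the main one, and counts of 0 that stayed 0. The tally is therefore no measure of how firm the results are. The homozygous minus wild-type difference among the highest peaks was 2.33, and 4.67 with 100000 peaks kept (exact permutation p = 0.0143). Leaving out 1 replicate gave 1.33 to 3.33. In the full lists the difference was 15, and 6.83 to 22.8 with 1 replicate left out. Per 100000 peaks it was 6.20, with 5.18 without homozygous replicate 2 and 4.63 without homozygous replicate 3 (exact permutation p = 0.00357 for the scaled value and for each of these), and as a percentage of chromosome 21 peaks it was 0.403 (exact permutation p = 0.0429). The scales per 100000 peaks and per chromosome 21 peaks were chosen after seeing the data. Without 1 list of each pair sharing intervals, chosen after seeing the data, the differences were 2.5 (exact permutation p = 0.181) and 14.7 (exact permutation p = 0.162), and 6.34 per 100000 (exact permutation p = 0.105).

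Sites separating homozygous and wild-type cells numbered 0, and 2 with 100000 peaks, 3 with the full lists and 0 to 1 with 1 replicate left out. Sites separating homozygous and heterozygous cells numbered 1, and 0 with 20000 peaks, 2 with the full lists, and 0 where absence was judged in the full list or a peak had to cover 50% of the site. Sites separating homozygous cells from the other 6 libraries numbered 0, and 1 with 100000 peaks and 2 with the full lists. Sites separating heterozygous and wild-type cells numbered 0, and 0 to 1 with 1 replicate left out and 1 without wild-type replicate 3 and heterozygous replicate 1 together. The homozygous minus wild-type difference in rank percentile of the intron 1 site was −1.72. With 1 replicate left out it ranged from −19.3 to 11.1 and changed sign for 3 of them (6.40 for wild-type replicate 1, 7.72 for wild-type replicate 2 and 11.1 for homozygous replicate 1). It never passed the threshold. Requiring a peak to cover 50% of itself or of the site changes nothing, since every peak lies inside its site. Ranking by −log10 q and keeping tied peaks (chosen after seeing the data) changed no call. Counting in the gene body and 10 kb on each side covers nearly the same stretch as the ERG window. It gave the same differences of 2.33 and 15, and no site calls were made with it.

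Libraries of different genotypes were correlated over windows of 305 kb across the genome, after the mean of each genotype was removed. Of pairs with the same replicate number, 2 of 9 correlated above 0.1, with a range of −0.518 to 0.335. Of pairs with other numbers, 10 of 18 did, with a range of −0.438 to 0.381. With a replicate block the differences stayed 2.33 (exact permutation p = 0.222) and 15 (exact permutation p = 0.0556), and 0 sites passed in rank.

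The lists give no read depth, so peaks near the caller's threshold limit the comparison. Homozygous replicate 3 had the longest list and 22 of the sites seen in 1 library. Homozygous replicate 1, with the shortest list of 181407 peaks, held 7 ERG peaks. Homozygous replicate 2 held 22 in a list of 198291, and wild-type replicate 2 held 8 in a list of 303825. The part of list length in these counts was not tested.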
